A study of Mus musculus with 2 samples.

Results

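The cells described here are early granulocyte-monocyte progenitors with a high level of Mpo, 3894 of the 23776 cells kept from lineage-depleted mouse bone marrow, 2388 in the wild-type (WT) library and 1506 in the Nat10 cKO library. They were chosen by their own transcripts. A UMI is 1 counted RNA molecule. Barcodes had to hold 1000 UMIs or more from no fewer than 500 genes, with mitochondrial genes giving no more than 10% of them. Levels per cell are given in CP10K, UMIs of a gene per 10000 UMIs of the cell. A member had Mpo at 10 CP10K or above and Elane and Prtn3 together at 20 CP10K or above, Fcnb and Wfdc21 together under 1 CP10K, Mcpt8 under 5 CP10K, Camp, Ltf and Ngp together under 50 CP10K, and fewer than 2 UMIs of Klf1. The levels of these 10 genes chose the cells and are given as a description.

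Granulocyte-monocyte progenitors are the marrow cells from which neutrophils and monocytes arise. At this stage they make the enzymes of the primary, or azurophil, granule: Mpo is myeloperoxidase, which makes hypochlorous acid from hydrogen peroxide and chloride, and Elane, Prtn3 and Ctsg are the serine proteases neutrophil elastase, proteinase 3 and cathepsin G. The transcription factor Irf8 favours the monocyte and dendritic cell branch, while Cebpe and Gfi1 act on the neutrophil branch.

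Both libraries came from bone marrow of C57BL/6 mice after antibody depletion of cells that carry mature lineage markers. The WT and the Nat10 cKO genotype each gave 1 library of 3′ droplet sequencing. Nat10 encodes the enzyme that places N4-acetylcytidine on RNA, and the study asked what it does in blood stem cell maintenance and differentiation. The sources used here do not give the age of the mice, the Cre driver or the removed part of Nat10. The series text names 5 mice without saying how they were shared between the libraries, and no label ties a cell to a mouse. With 1 library per genotype there is no test between genotypes: every interval below is a 95% interval that covers counting error only, and differences between mice or between preparations cannot be told apart from the genotype.

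The WT library held 288303275 UMIs in 15848 barcodes and the cKO library 271499717 UMIs in 13479 barcodes. The libraries shared 67 barcodes, 40 of them kept and 1 a member in both. Scrublet called 4.02% of the WT and 5.31% of the cKO members doublets, and these stayed in the set because the rule does not remove them. Member cells fell into a deep and a shallow group. Of the members, 705 in WT (29.5%) and 177 in cKO (11.8%) had under 3000 UMIs, although these held 1.87% and 0.73% of the members' UMIs. The members with at least 3000 UMIs had medians of 34999 UMIs in WT and 32075 in cKO, and the shallow ones 1478 and 1634.

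**Figure D1:**
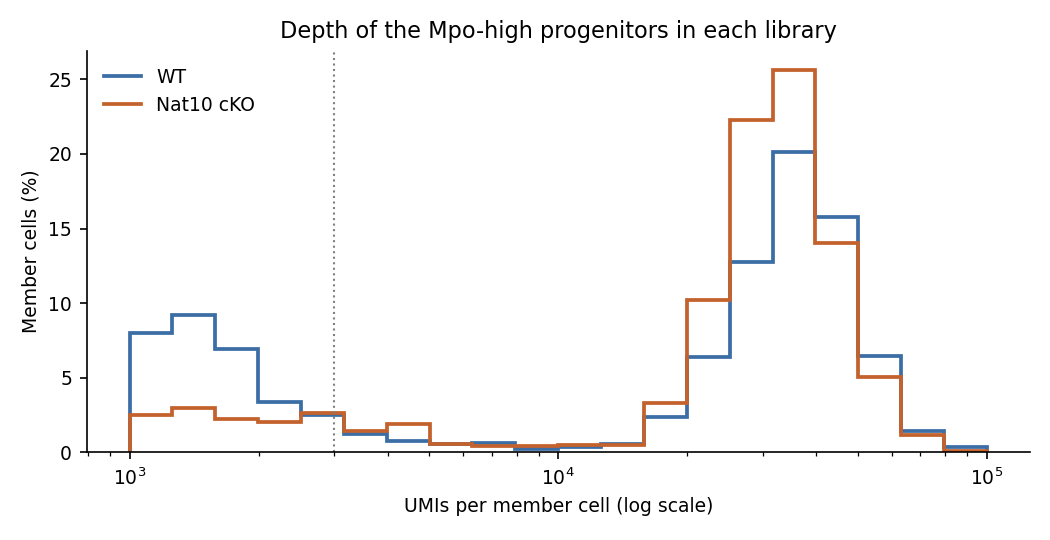
Share of the member cells (vertical axis, percent of members of that library) by UMIs per cell (horizontal axis, log scale) for the WT and the Nat10 cKO library; the dotted line marks 3000 UMIs. Both libraries have a peak above 20000 UMIs, and the second peak under 3000 UMIs holds 29.5% of WT and 11.8% of cKO members.

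The shallow members did not match their deep counterparts in other cells' markers. Their summed level of the 19 erythroid marker genes was 6251 CPM (UMIs summed over cells and scaled as CP10K are, but with 100 CPM to 1 CP10K) in WT and 4760 CPM in cKO, against 729 and 722 CPM in the members with at least 3000 UMIs. Mpo stood at 14.8 CP10K in shallow WT barcodes that were not members and at 6.32 CP10K in those of cKO, close to the 14.2 and 5.50 CP10K of non-members with 20000 UMIs or more. Non-members of 3000 to 10000 UMIs were lower, at 6.67 CP10K in WT and 3.29 in cKO. Those of 10000 to 20000 UMIs were at 8.88 and 7.15 CP10K. Non-members include the cells that failed only the limit on Fcnb and Wfdc21, where Mpo was at 93.9 CP10K in WT and 71.2 in cKO. The thresholds cut through these cells in WT: the 790 WT members with Elane and Prtn3 between 20 and 40 CP10K had a median of 2089 UMIs, and the 618 WT cells just under the threshold, between 10 and 20 CP10K, had 2048. In cKO the 398 members just over it had a median of 24035 UMIs and the 229 cells just under it 17568. The part of free RNA in these memberships was not tested, so shares of cells are given with and without the shallow barcodes.

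In the deep members the markers were present as the name of the set asks. Ctsg, which the rule did not use, had a UMI in 99.7% of the deep WT members and 99.8% of the deep cKO members, with medians of 18.1 and 24.5 CP10K. Erythroid cells with 2 or more UMIs of Klf1, used as a background throughout, had a Ctsg UMI in 75.1% and 71.4% of cells, with higher median depths than the deep members (39129 and 39489.5 UMIs), but at medians of 0.359 and 0.304 CP10K. Cd34, a surface sialomucin of progenitors that the rule also did not use, had a UMI in 85.3% and 83.1% of the deep members, against 11.6% and 8.86% of the erythroid cells. Over all members Cd34 was at 1.18 CP10K of summed UMIs in WT and 1.05 in cKO, against 0.346 and 0.217 in the other kept cells. Mpo, a gene of the rule, was at 59.7 CP10K of summed UMIs in WT members and 46.5 in cKO members.

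The sequences upstream of the 4 granule protease and peroxidase genes are shown because these genes mark the cells. They are the 250 bases before the annotated start, on the gene's strand, from RefSeq on GRCm38.p6 (the count files were made on mm39), at chr11:87793534-87793783 for Mpo (plus strand), chr10:79886062-79886311 for Elane (plus), chr10:79879417-79879666 for Prtn3 (plus) and chr14:56102575-56102824 for Ctsg (minus). Capitals mark GAGGAA and AGGAAGT, 2 forms of the site of ETS factors such as PU.1, the product of Spi1. The letters were chosen after the sequences had been seen, and both strands were searched.
Mpo: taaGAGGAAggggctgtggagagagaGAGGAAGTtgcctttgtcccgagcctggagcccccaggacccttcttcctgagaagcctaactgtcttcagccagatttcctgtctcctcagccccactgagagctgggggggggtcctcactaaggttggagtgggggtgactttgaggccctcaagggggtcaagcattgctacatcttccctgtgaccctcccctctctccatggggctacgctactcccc
Elane: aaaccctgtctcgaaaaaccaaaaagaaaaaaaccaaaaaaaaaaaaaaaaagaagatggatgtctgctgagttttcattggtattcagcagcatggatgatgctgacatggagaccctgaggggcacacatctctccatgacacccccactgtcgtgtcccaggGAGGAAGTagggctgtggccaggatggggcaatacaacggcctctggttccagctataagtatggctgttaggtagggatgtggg
Prtn3: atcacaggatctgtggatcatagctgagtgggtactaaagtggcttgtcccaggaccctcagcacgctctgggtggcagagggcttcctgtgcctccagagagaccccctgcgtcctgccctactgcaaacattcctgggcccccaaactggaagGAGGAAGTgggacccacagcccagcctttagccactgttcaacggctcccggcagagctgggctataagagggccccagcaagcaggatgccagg
Ctsg: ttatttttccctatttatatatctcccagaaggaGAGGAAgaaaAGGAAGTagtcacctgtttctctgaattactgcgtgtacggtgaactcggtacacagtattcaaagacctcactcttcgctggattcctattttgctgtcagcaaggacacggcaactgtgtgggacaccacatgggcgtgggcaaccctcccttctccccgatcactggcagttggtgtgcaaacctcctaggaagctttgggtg
All 4 windows held both forms, which overlap as 1 run in Mpo, Elane and Prtn3 and lie apart in Ctsg. Among 32851 promoter windows of this length, 23.3% held GAGGAA and 7.69% held AGGAAGT. The motif TTNNGNAA, a C/EBP-type site present in 36.8% of all windows, was not among the letters of these 4. Other genes were searched in the same way. Ly6c2, a monocyte gene, also held both GAGGAA and AGGAAGT in each of its windows, while Ms4a3, Irf8 and Klf4 held neither. A match is a description of the letters and was not tested as a binding site.

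The set was a smaller share of the cKO library. It made up 19.0% of kept WT cells (2388 of 12537, exact binomial interval 18.4 to 19.7) and 13.4% of kept cKO cells (1506 of 11239, 12.8 to 14), a ratio of 0.70 (0.66 to 0.75). Without barcodes under 3000 UMIs the shares were 18.1% (1683 of 9322) and 14.5% (1329 of 9165), a ratio of 0.80 (0.75 to 0.86). A share depends on what else is in the library: among deep cells without Klf1, which leaves out the erythroid cells, the set was 28.4% in WT and 26.4% in cKO, a ratio of 0.93 (0.86 to 1). As a share of all cells past the Mpo and the Elane and Prtn3 thresholds, members were 71.3% in WT and 76.5% in cKO.

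Of the cells past those 2 thresholds, most that failed another limit had Fcnb or Wfdc21, early genes of neutrophil commitment: 715 of 3347 in WT and 314 of 1969 in cKO. Cells that met every other limit but had Fcnb and Wfdc21 at 1 CP10K or above, the next cells on the neutrophil side, were 5.37% of the WT library (673 cells) and 2.50% of the cKO library (281 cells), a ratio of 0.47 (0.40 to 0.54). Counted with the set, they were 22% of these cells in WT and 15.7% in cKO. Among cells with at least 3000 UMIs those shares were 25.7% and 16.3%. The genes that chose these cells were themselves lower in cKO. Within them Fcnb was at 157 CPM in WT and 55.5 in cKO, and Wfdc21 at 308 and 257 CPM. In the set Fcnb was at 6.65 and 2.50 CPM and Wfdc21 at 6.88 and 5.46 CPM. The part of these lower levels in the smaller shares was not tested.

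Nat10 itself was counted in 2472 UMIs of the WT members and 1283 of the cKO members, 40.9 and 29.7 CPM, a log2 ratio of cKO over WT of −0.46 (−0.56 to −0.36). Counts at the 3′ end check the deletion only if it removes or destabilises that end, which the labels do not say. Thumpd1, its adaptor for transfer RNA, was at 50.4 and 56.3 CPM (0.16, 0.08 to 0.24). Nat10 transcripts were thus still counted in the cKO members, at a lower level than in WT.

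Gene levels within the set were compared as UMIs summed over the members of each library, scaled to CPM, as log2 of cKO over WT with 0.5 added to each sum. Of 11897 genes with at least 200 UMIs over both libraries, 133 (1.12%) were at least 1.5-fold higher and 925 (7.78%) at least 1.5-fold lower in cKO, 67.6% had a ratio below 1, and the median over all genes was −0.16. Scaling by the trimmed mean of M-values (TMM) moved every value up by 0.14 and turned the split into 408 higher and 486 lower, and median-of-ratios scaling gave 426 and 479. Values are therefore read against the median of −0.16. The longer a gene, the lower its ratio tended to be: the median was 0.07 over 1044 genes spanning under 3 kb and −0.49 over 238 genes spanning 300 kb or more. Of genes spanning 100 to 300 kb 16.4% were at least 1.5-fold lower, and of those spanning 300 kb or more 39.1%. The part of span in the ratios of single genes and of lists below was not tested.

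The list of primary granule genes was not lower as a group. Beside granule contents it also counts Ms4a3, Serpinb1a, Gstm1 and Clec12a. Of 14 measured members outside the rule, 6 were higher and 8 lower, none was 1.5-fold higher and 1, Lyz2, was 1.5-fold lower. Of all genes 32.4% were higher and 67.6% lower, with 1.12% at least 1.5-fold higher and 7.78% at least 1.5-fold lower. The 1.5-fold counts of the list were thus close to the shares of all genes. The median of −0.07 lay above that of all genes, and TMM scaling turned it to 0.071. Ctsg was at 2123 CPM in WT and 2814 in cKO, a log2 ratio of 0.41 (0.40 to 0.42). Ms4a3, a membrane protein of granulocyte-monocyte progenitors that curbs the cell cycle, was at 680 and 918 CPM (0.43, 0.41 to 0.45). Serpinb1a, an inhibitor of the granule proteases, was at 206 and 274 CPM (0.41, 0.37 to 0.45). These 3 genes and the cysteine protease gene Ctsz (0.33) were the highest of the list, and all 4 were under the 1.5-fold mark. At the other end stood Lyz2, the lysozyme shared with monocytes, at 269 and 145 CPM (−0.89, −0.93 to −0.84), and Gstm1, a glutathione transferase, at 233 and 155 CPM (−0.58, −0.62 to −0.54); Gstm1 belongs to a family of similar genes, between which reads may be shared. Ctsc, the protease that activates elastase, proteinase 3 and cathepsin G, was at 87.4 and 64.7 CPM (−0.43). The 3 granule genes of the rule differed among themselves: Mpo had a log2 ratio of −0.36, Elane of −0.23 and Prtn3 of 0.13.

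Monocyte genes were lower together. All 24 of the list were measured: 22 were lower and 2 higher in cKO, 13 were at least 1.5-fold lower and none 1.5-fold higher, with a median of −0.76 beside −0.16 over all genes. Of all genes 67.6% were lower, 7.78% at least 1.5-fold lower and 1.12% at least 1.5-fold higher. The lowest were Fn1, fibronectin, at 13.2 CPM in WT and 2.06 in cKO (−2.68, −3.01 to −2.36), and Nrg1, the ligand neuregulin of ERBB receptors, at 186 and 35.0 CPM (−2.41, −2.49 to −2.33). F13a1, coagulation factor XIII, was at 1157 and 711 CPM (−0.70). The 2 higher genes were Tmem176a (0.12) and Tmem176b (0.02). The summed level of the list was 5232 CPM in WT and 3120 in cKO members. In the erythroid background cells the list stood at 277 and 162 CPM, lower in cKO as well and far below the members' level.

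Of 30 transcription factors measured, 24 were lower and 6 higher in cKO, where 67.6% of all genes were lower. At least 1.5-fold lower were 7 of the 30, beside 7.78% of all genes, and 1 was at least 1.5-fold higher, with a median of −0.33. Irf8 was at 359 CPM in WT (Poisson interval 354 to 364) and 200 in cKO (196 to 204), a log2 ratio of −0.84 (−0.88 to −0.81); in the erythroid cells it was at 19.2 and 9.34 CPM. Klf4, a factor of monocyte differentiation, was at 80.1 and 28.5 CPM (−1.49, −1.58 to −1.40). Zeb2, a repressor that acts in monocytes and dendritic cells, was at 1174 and 722 CPM (−0.70, −0.72 to −0.68). The signal-induced Egr1 (−1.58) and Nr4a1 (−0.84), and Meis1 (−0.73) and Bach2 (−0.74), were the others past 1.5-fold. Runx1, a general factor of blood cell development, was at 909 and 651 CPM (−0.48). Some factors of the granulocyte-monocyte programme lay near the median of all genes: Cebpa was at 38.2 and 33.5 CPM (−0.19), Spi1 at 208 and 189 (−0.14), Gfi1 at 23 and 21.7 (−0.08) and Cebpe at 42.0 and 43.2 (0.04). The sign of Spi1 and Gfi1 turned positive under TMM scaling. Hmga2, a chromatin protein of fetal and proliferating cells, was the one factor 1.5-fold higher, at 17.7 and 34.1 CPM (0.95, 0.84 to 1.06).

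Receptors and surface proteins were lower in 26 of 27 measured genes, 10 of them at least 1.5-fold, with a median of −0.44; of all genes 67.6% were lower and 7.78% at least 1.5-fold lower. Ly6c2, a surface antigen of monocytes and their progenitors, was at 1297 and 629 CPM (−1.04, −1.06 to −1.02), with the limit that Ly6 genes resemble each other. Csf1r, the receptor of macrophage colony-stimulating factor, was at 69.5 and 38.3 CPM (−0.86, −0.94 to −0.77). Csf3r, the receptor of granulocyte colony-stimulating factor, was at 62.9 and 47.1 CPM (−0.42, −0.50 to −0.34), and the chain Csf2ra of the receptor of granulocyte-macrophage colony-stimulating factor at 57.1 and 41.0 CPM (−0.48). Kit, the receptor of stem cell factor, was at 108 and 81.3 CPM (−0.41), and Cd34 at 118 and 105 CPM (−0.16). Cd48 alone was higher, at 77.9 and 97.0 CPM (0.32). TMM scaling left the median of the list at −0.30.

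**Figure D2:**
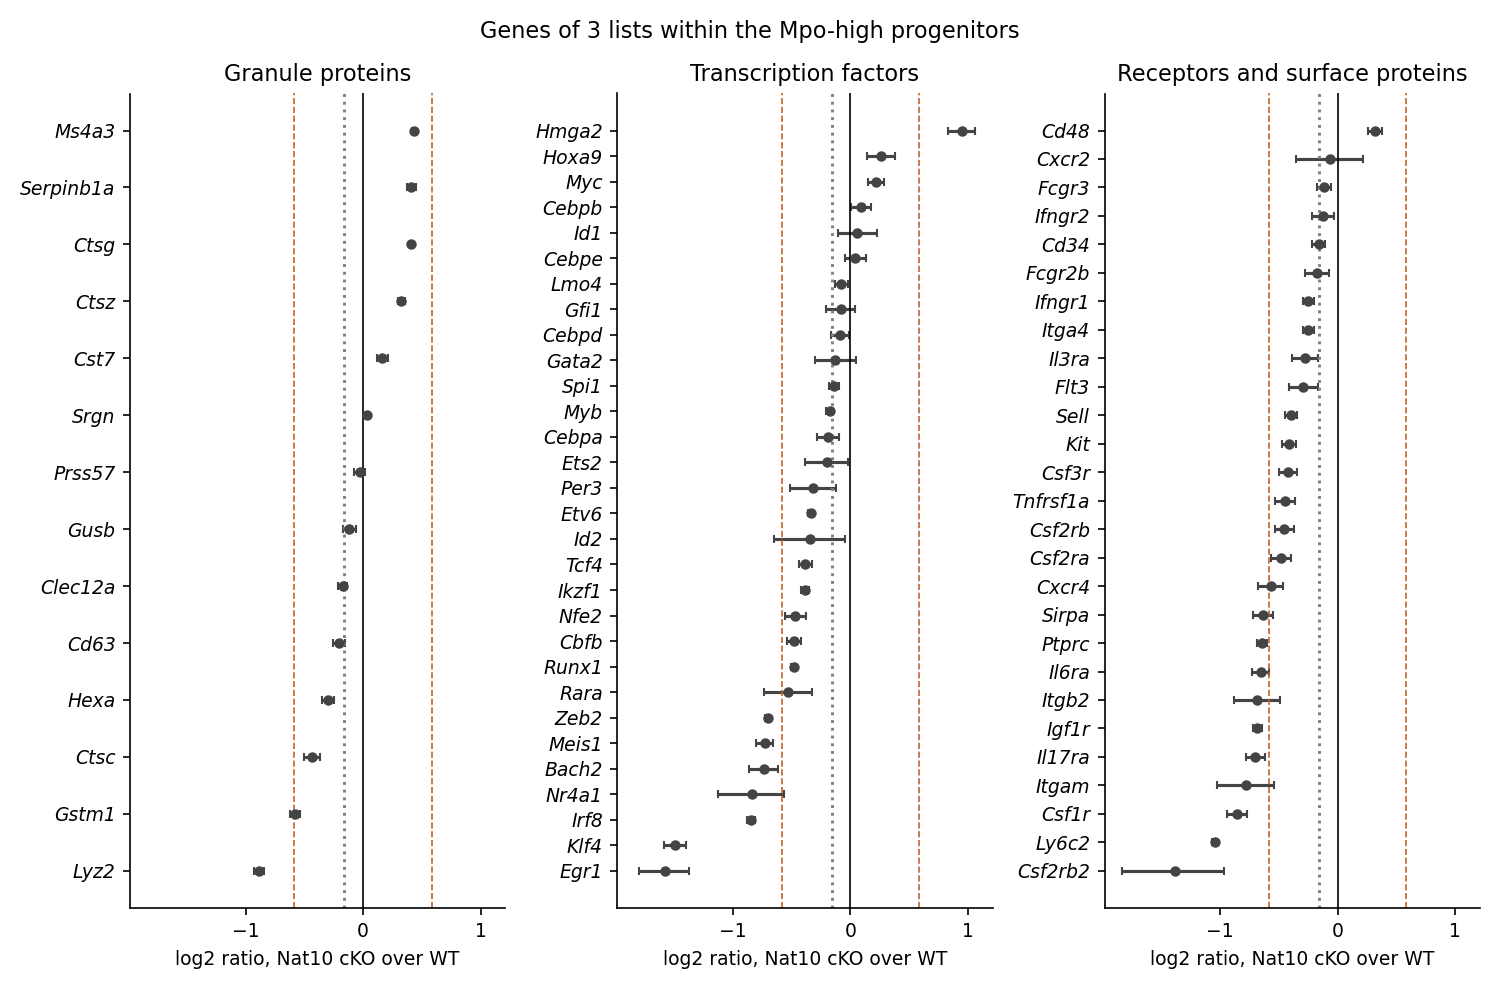
Log2 ratio of cKO over WT (horizontal axis) of every measured gene of the primary granule, transcription factor and receptor lists (vertical axis) within the members; bars are 95% counting intervals, dashed lines mark 1.5-fold, the dotted line the median of all genes at −0.16. The genes of the granule list lie on both sides of that line, and Irf8, Klf4, Csf1r and Ly6c2 lie beyond 1.5-fold lower.

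Outside the myeloid lists, genes of protein synthesis and mitochondria were higher and signal-induced genes lower. Mitochondrial ribosomal protein genes were higher in 76 of 77 (median 0.37), oxidative phosphorylation genes in 75 of 80 (0.26), cytosolic ribosomal protein genes in 82 of 86 (0.23), MYC targets in 31 of 35 (0.31) and heat shock chaperones in 12 of 13 (0.35), where 32.4% of all genes were higher. Examples are Mrpl12, a protein of the large mitochondrial ribosomal subunit, at 222 and 339 CPM (0.61), and Hspd1, the mitochondrial chaperone HSP60, at 556 and 849 CPM (0.61). These lists hold short genes: the median span was 7.91 kb for the mitochondrial ribosomal and 3.23 kb for the cytosolic ribosomal proteins, and the part of span in their medians was not tested. The 13 genes encoded in mitochondria went the other way, with 12 lower and a median of −0.30.

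Against the same 67.6% and 7.78% of all genes, interferon response genes had a median of −0.45, with 30 of 34 lower and 15 of them at least 1.5-fold; the lowest was Ifi27l2a at 10.5 and 2.31 CPM (−2.17), and Bst2 (0.26) was among the 4 higher. Immediate early genes had a median of −0.40, with 23 of 27 lower and 12 at least 1.5-fold, among them Klf2 at 71.2 and 21.4 CPM (−1.73). The highest of that list were Sgk1 (0.29) and Myc, at 60.4 and 70.3 CPM (0.22). Genes of S phase (median −0.09 over 44) and of G2 and mitosis (−0.05 over 54) lay close to the median of all genes, no gene of either list was 1.5-fold different, and both medians turned positive under TMM scaling.

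**Figure D3:**
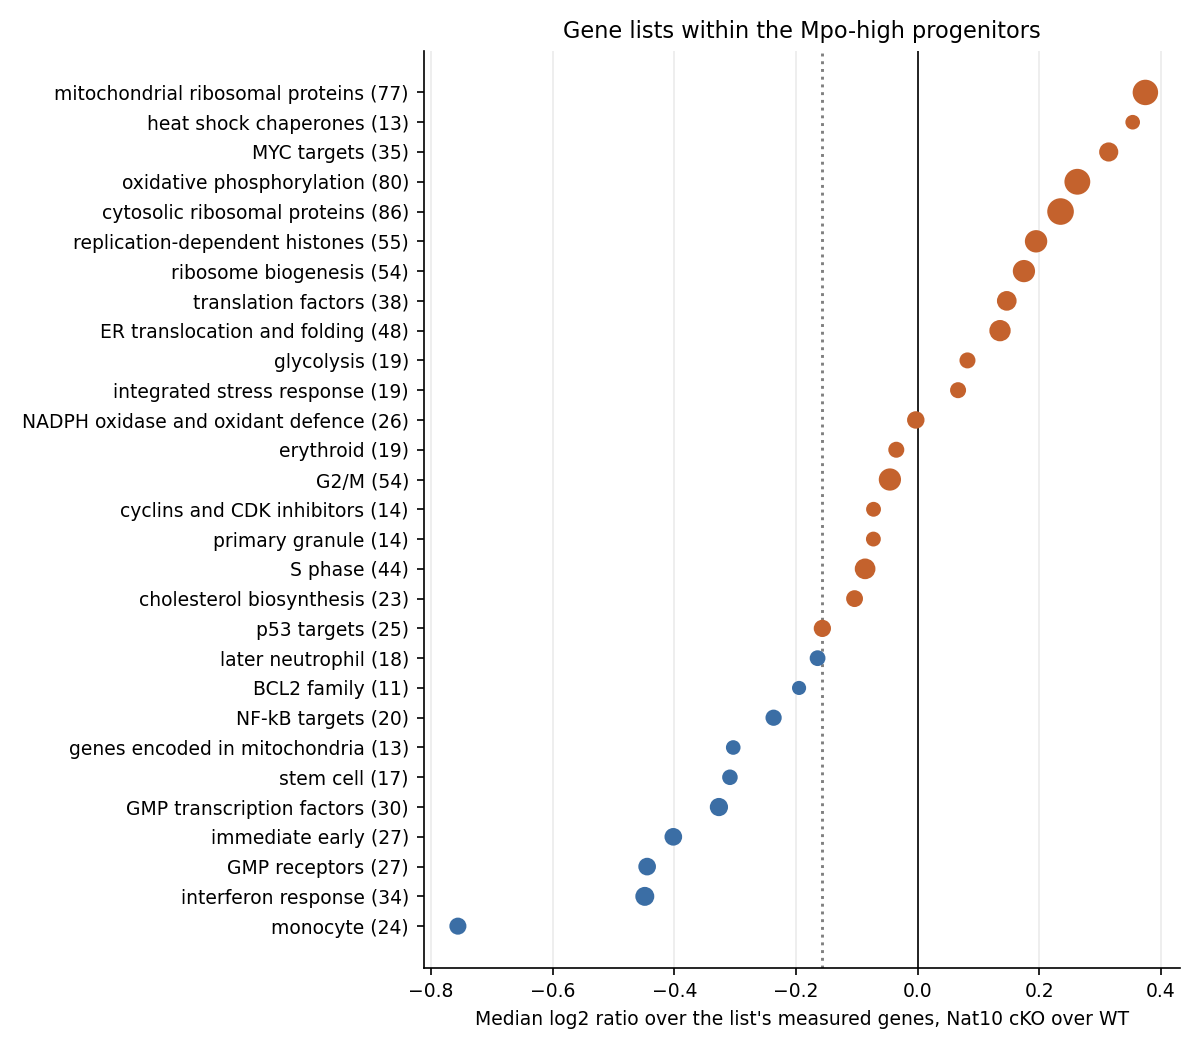
Median log2 ratio of cKO over WT (horizontal axis) for each gene list with at least 10 measured genes (vertical axis, number of measured genes in brackets, larger points for more genes) within the members. The solid line is 0 and the dotted line the median of all genes, −0.16; orange points lie above and blue points below it, from monocyte genes at −0.76 to mitochondrial ribosomal proteins at 0.37.

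Ccnd1 had the highest ratio of 6378 genes whose mean level reached 20 CPM, with genes of the rule, unnamed models and antigen receptor, haemoglobin, mitochondrial and sex-linked genes left out. Ccnd1 encodes cyclin D1, which drives entry into the cell cycle, and was at 10.7 CPM in WT and 38.7 in cKO (1.85, 1.72 to 1.98). Next came Hmga2, Mcrip2 (0.84), the splicing factor Txnl4a (0.81), Gcsh of the glycine cleavage system (0.76) and Fam136a (0.76), then Mrto4 (0.72), Wdr18 (0.71), Hras (0.71) and Rpp40 (0.70). Mrto4 and Wdr18 act in ribosome assembly. The lowest was Nrg1, followed by Jchain, the joining chain of secreted antibodies, at 47.0 and 11.9 CPM (−1.99), Ly6a2 (−1.94), Mir99ahg (−1.90), Rnf217 (−1.85), Klf2 (−1.73), Itga1 (−1.71), Stxbp6 (−1.61), the phospholipase gene Plcb1 (−1.57) and Klf4. Ccnd1 apart, the 10 lowest genes lay farther from 0 than the 10 highest. The part of gene span in these ratios was not tested.

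Members differed among themselves along the granule genes. In deep members of both libraries, Cd34, Flt3, Irf8, F13a1, Klf4 and Ccnd1 were lower, and Ctsg, Ms4a3, Gstm1, Nkg7 and Prss57 higher, at each step from 20 to 50, 50 to 100, 100 to 200 and 200 or more CP10K of Elane and Prtn3. The top step held only 27 WT and 32 cKO cells, with 2 UMIs of Flt3 in each library and 0 and 4 UMIs of Ccnd1. From the lowest step to the third, Cd34 was at 170, 121 and 78.7 CPM in WT and at 146, 111 and 66.2 CPM in cKO. Flt3, a receptor of early progenitors, was at 62.5, 17.5 and 5.20 CPM in WT and at 46.1, 12.7 and 5.38 CPM in cKO. Ms4a3 was at 241, 554 and 1150 CPM in WT and at 386, 830 and 1479 CPM in cKO. Since Elane and Prtn3 chose the steps, these gradients are a description of cells that differ in granule gene level.

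The differences between the libraries were present at each of the first 3 steps. The log2 ratio of Irf8 was −0.70, −0.94 and −0.96, of Klf4 −1.34, −1.64 and −1.54, of Ly6c2 −1.08, −1.08 and −0.96, and of Nrg1 −2.51, −2.57 and −2.06. Ctsg was higher in cKO by 0.50, 0.46 and 0.37, and Ms4a3 by 0.68, 0.58 and 0.36. Ccnd1 was higher by 1.44, 2.02 and 2.27. Cebpe did not keep a sign: its ratio was −0.64, 0.52 and −0.05. At the top step the ratio was 0.19 (0.13 to 0.24) for Ctsg and 0.07 (−0.02 to 0.17) for Ms4a3. There Irf8 was at −0.83, Ly6c2 at −0.84 and Nrg1 at −0.96. In deep members the steps held similar shares of the set in both libraries, 29.3% of WT and 32.1% of cKO cells in the lowest, 40.8% and 37.8% in the second and 28.3% and 27.8% in the third. With shallow cells included the lowest step held 44.1% of WT and 36.5% of cKO members.

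**Figure D4:**
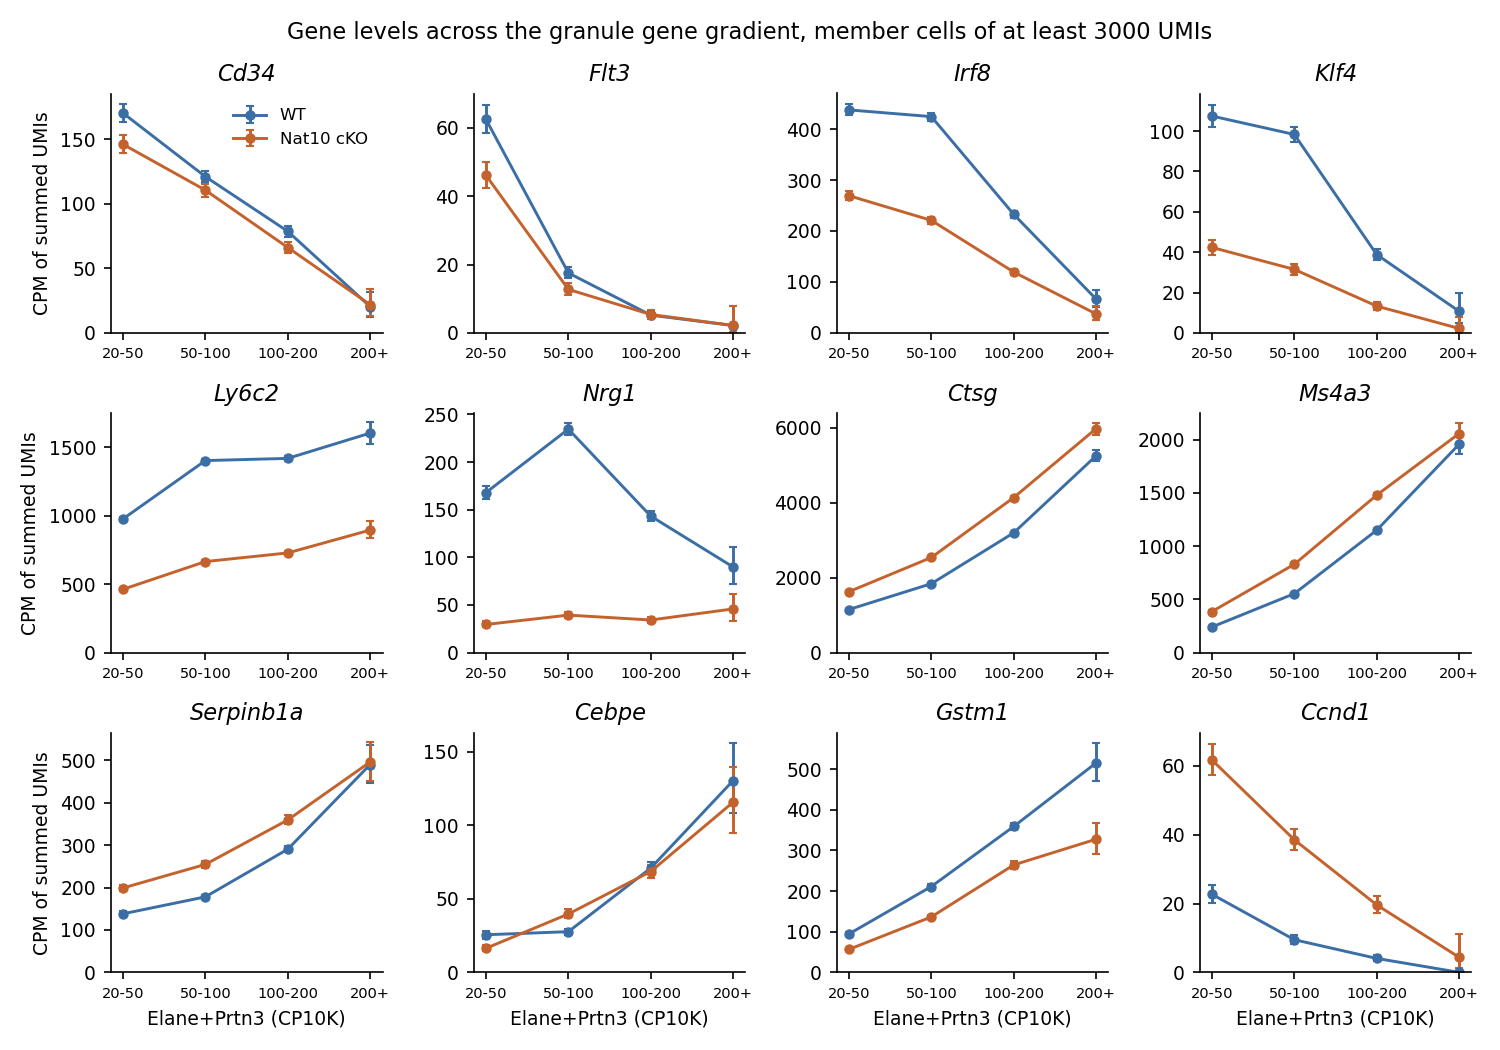
CPM of 12 genes (vertical axis, a scale for each gene) in deep members grouped by Elane and Prtn3 level (horizontal axis, CP10K) in WT and Nat10 cKO; bars are 95% Poisson intervals. Cd34, Flt3, Irf8, Klf4 and Ccnd1 are lower and Ctsg and Ms4a3 higher toward the right in both libraries, and the lines of Irf8, Klf4, Ly6c2 and Nrg1 are lower in cKO at every step.

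To count cells at 1 depth, each member was thinned to 5000 UMIs, which left 1625 WT and 1268 cKO cells and left out 763 and 238. Irf8 had a UMI in 64.7% of WT members (62.4 to 67.1) and 48.9% of cKO members (46.1 to 51.7), against 6.05% and 2.59% of erythroid cells at the same depth. Without thinning, over all members of unequal depth, the shares were 64.4% and 65.5%, against 27.5% and 14.4% of erythroid cells. Klf4 had a UMI in 25.5% and 11.2%, Csf1r in 25.7% and 15.9%, and Nrg1 in 43.8% and 12.1%. Each of these 3 genes had one in at most 2.18% of the thinned erythroid cells of either library. Ms4a3 had a UMI in 79.3% of WT and 88.9% of cKO members, where erythroid cells had 8.57% and 7.03%. Ccnd1 had one in 5.66% and 15.2%, with 1.41% and 4.59% of erythroid cells. Cd34 was found in 40.9% and 37.5%, with overlapping intervals, and Cebpe in 15.4% and 15.5%.

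Read together in the same thinned cells, Irf8 without Ms4a3 was found in 17.4% of WT members (283 cells, 15.6 to 19.3) and 8.36% of cKO members (106 cells, 6.89 to 10.0). Ms4a3 without Irf8 was found in 32.0% (520 cells) and 48.3% (613 cells). Both were found in 47.3% and 40.5%, and neither in 3.26% and 2.76%. A cell without a UMI after thinning may still express the gene.

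**Figure D5:**
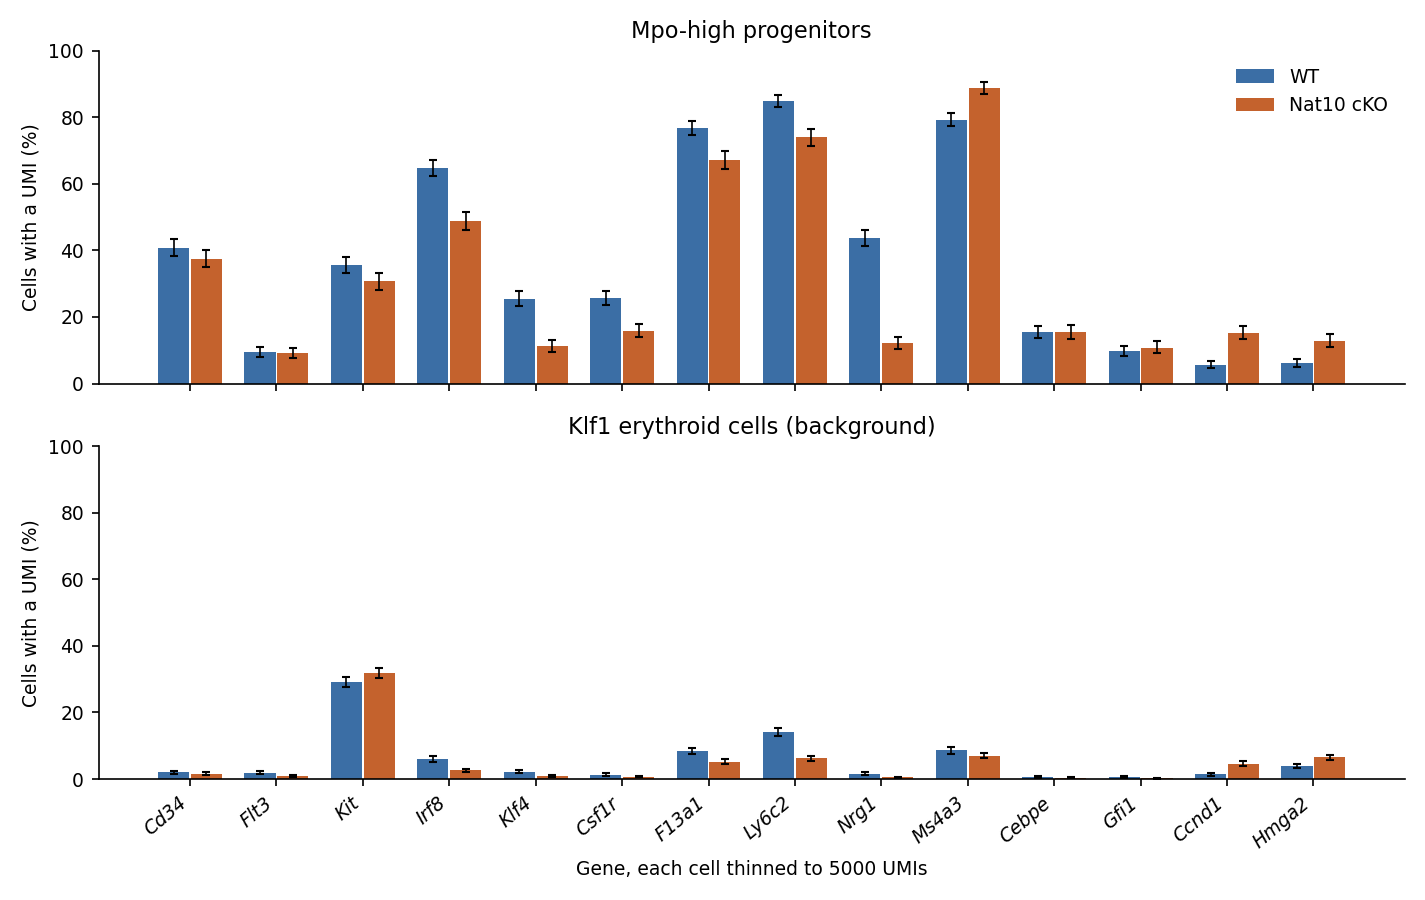
Percent of cells with at least 1 UMI (vertical axis) of each gene (horizontal axis) after thinning to 5000 UMIs per cell, in the members (top) and in erythroid cells with Klf1 (bottom); bars are WT and Nat10 cKO, error bars exact 95% binomial intervals. Irf8, Klf4, Csf1r and Nrg1 are found in fewer cKO members and Ms4a3 and Ccnd1 in more, and Kit is found in 29.1% of WT and 31.8% of cKO erythroid cells, beside 35.6% and 30.7% of members.

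Beside neighbouring cells, members lay between progenitors with Cd34 and Kit and the cells with Fcnb or Wfdc21 in 2 genes: Cd34 was at 319, 118 and 21.6 CPM in WT and at 294, 105 and 12.4 CPM in cKO along that order, and Ms4a3 at 19.4, 680 and 1816 CPM in WT and at 40.5, 918 and 2257 CPM in cKO. Neighbours were chosen by their genes too, so the levels are a description. Cd34 was a gene that chose the Cd34 and Kit progenitors, so their high Cd34 level was set by that choice. Against the cells with Fcnb or Wfdc21, the genes with the largest ratio in both libraries were Cd34, Irf8 (359 against 67.0 CPM in WT, 200 against 17.9 in cKO), Auts2, Apba1, Ms4a6c, Ifitm1, F13a1 and Bcl2. Those lowest in the set were Cd63 (156 against 603 CPM in WT, 135 against 519 in cKO), Nkg7, Prss57, Rgcc, Srgn, Pip5k1b, Ms4a3 and Dstn. Cd63 is a granule membrane protein and Srgn the proteoglycan that packs granule proteases.

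Against the 272 WT and 119 cKO progenitors with Cd34 and Kit but below the Mpo and the Elane and Prtn3 thresholds, members were highest in Hp, Ly6c2, Ms4a3, Nrg1, Igsf6, Gda, Slpi and F13a1. Hp encodes haptoglobin and Slpi an inhibitor of granule proteases. Genes among the lowest in members were Aff3, Adgrl4, Msi2, Pde4b, Rnf220, Ifitm1 and Zbtb20, of which Msi2, an RNA-binding protein of stem cells, was at 212 against 1654 CPM in WT and 171 against 1163 in cKO. Against the 1345 WT and 747 cKO cells with Csf1r, F13a1 or Ccr2 and little Elane and Prtn3, members were highest in Ms4a3, Nkg7, Prss57, Ctsg, Gstm1, Alas1, Cd63 and Hp, and lowest in Crip1, Runx2, Pip4k2a, Psap, Nptn, Ccdc88a, Lyn and Lyz2.

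Several of the differences seen in members had the same sign in these neighbours. The log2 ratio of Irf8 was −1.90 in the cells with Fcnb or Wfdc21, −0.48 in the Cd34 Kit progenitors and −0.23 in the cells with monocyte genes, against −0.84 in the set. For Klf4 the values were −2.21, −1.90 and −0.93, against −1.49, and for Ly6c2 −0.88, −1.56 and −0.76, against −1.04. Ctsg was higher in all 3, by 0.35, 1.24 and 0.53, and Ccnd1 by 1.01, 1.46 and 0.59. The erythroid background cells, at lower levels of Irf8, Klf4 and Ly6c2, had ratios of −1.04, −1.49 and −1.29 for these genes and of 1.45 for Ccnd1, while Ctsg stood at −0.025. The part of free RNA in the members' ratios was not tested. Whether the sizes differ between these populations was not tested, since each genotype has 1 library.

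Markers of other cells were present, and some lists differed between the libraries. In members the eosinophil list of 9 genes was at 105 CPM in WT and 40.4 in cKO, with Prg2 at 73.4 and 28.2 CPM, and the macrophage list of 11 genes at 36.1 and 8.84 CPM. The dendritic list of 14 genes was at 38.9 and 23.2 CPM, and in the erythroid cells at 39.2 and 29.7. The erythroid list was at 832 and 752 CPM, and the stem cell list of 25 genes at 1130 and 887 CPM. Not every list was lower in cKO. The T, NK and innate lymphoid list of 14 genes, 1 of them measured, was at 325 and 374 CPM. The stromal and endothelial list of 11 genes was at 166 and 138 CPM. Of its 6 measured genes 5 were higher in cKO, where 32.4% of all genes were higher. The list of 29 later neutrophil genes was at 861 and 816 CPM, against 4916 and 3445 in the cells with Fcnb or Wfdc21. The part of these cells' RNA in the ratios was not tested; with at least 3000 UMIs per member, the ratio was −0.85 for Irf8, −1.50 for Klf4, −1.05 for Ly6c2, 0.39 for Ctsg and 1.85 for Ccnd1.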

How the data were processed

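Lineage-depleted bone marrow cells of 1 WT and 1 Nat10 cKO library were measured by 3′ single-cell RNA sequencing. The deposited values are raw UMI counts per gene and barcode; per the submitters' processing notes, the authors used Cell Ranger 7.1.0 and the mm39 build, and no source used here says whether intronic reads were counted. Groups came from the genotype labels. The members and gene lists were chosen with earlier results of these data known.

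Members were found by the thresholds given above. UMIs were summed over members per library and scaled to CPM, with 0.5 added to each sum for log2 ratios and a floor of 200 UMIs over both libraries. Ratios have exact conditional binomial intervals, shares Clopper-Pearson intervals and sums Poisson intervals, all at 95%. A call means at least 1.5-fold. The ratio step was tested on simulated counts. Named genes were every measured gene of the granule, transcription factor and receptor lists, the 2 highest and 2 lowest of every other list, the 10 highest and 10 lowest of all (mean of at least 20 CPM), and the 8 highest and lowest against each neighbour (mean of at least 100 CPM in the set); 1 gene that this rule names is not reported here. Gene spans came from GENCODE on GRCm38 (98.5% of genes matched). Doublets were called with Scrublet in scanpy 1.11.5 and TMM factors with edgeR 4.0.16, both only for alternatives.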

Additional observations from a re-analysis of the deposited data

Results flagged for a closer look

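Bach2, a repressor of the transcription factor list, had opposite differences in the set and in the cells next to it on the neutrophil side, past 1.5-fold in both. In the set it was at 28.8 CPM in WT and 17.2 in cKO, a log2 ratio of −0.74 (−0.86 to −0.61). In the cells with Fcnb or Wfdc21 it was at 7.18 and 16.5 CPM, a log2 ratio of 1.20 (0.84 to 1.57), on 137 and 120 UMIs. The difference between the populations was not tested.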

How the results depend on the processing

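No paired analysis was possible because each genotype has 1 library and the labels carry no replicate numbers; for the same reason no library could be left out. The counts of genes at least 1.5-fold higher and lower, 133 and 925, became 408 and 486 with TMM scaling, 426 and 479 with median-of-ratios scaling, 372 and 1682 with a floor of 50 UMIs and 45 and 444 with a floor of 1000 UMIs; with every cell weighed alike 248 were higher. The primary granule median of −0.07 became 0.055 with every cell weighed alike, 0.071 with TMM scaling and −0.14 with the cKO granule gene steps at the WT mix. TMM scaling gave −0.18 for transcription factors, −0.30 for receptors, −0.61 for monocyte genes and −0.021 for later neutrophil genes, and the WT mix gave −0.63 for monocyte genes. The ratio of the set's shares, 0.70, became 0.80 at 3000 UMIs, 0.77 with Elane and Prtn3 at 40 CP10K and 1.07 among all cells past both granule thresholds. It was 0.81 at 20000 UMIs and 0.93 among deep cells with fewer than 2 UMIs of Klf1, 2 alternatives chosen after seeing the data. At 3000 UMIs the ratio of shares in the granule gene steps from 20, 50 and 100 CP10K became 1.09, 0.93 and 0.98, from 0.83, 1.06 and 1.23. Ngp turned to −0.24 and Sparc to −0.23 with every cell weighed alike, and the ratio of cells with Irf8 to 1.02 without thinning. Over the 218 named genes, 1128 values under an alternative stayed close to the reported one and 395 moved. Ngp and Sparc turned sign from a value at or past 1.5-fold. Smaller ratios could turn sign too, and those of Spi1 and Gfi1 did so under TMM scaling and count among the moved. Where members had to hold 0 UMIs of Fcnb and Wfdc21, the value of 0.24 for Fcnb is only the 0.5 added over the totals and says nothing of Fcnb. TMM scaling moved 155 of the 218 genes, weighing every cell alike 137, the limit of 0 UMIs of Fcnb and Wfdc21 46, the WT mix 41, the limit of 20000 UMIs 9, that of 3000 UMIs 5 and removing called doublets 2. The cause of these moves was not tested, apart from the fewer or additional genes that a floor measures. Depth limits the genes with few UMIs and the shallow members, whose cell identity rests on few molecules.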
